A study of Drosophila melanogaster with 5 samples.

Results

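Irk1, Irk2 and Irk3 encode the inward rectifier potassium (Kir) channels of Drosophila. They are 3 of the 16495 genes measured in nuclei of adult Malpighian tubules (MTs), the fly's renal organ, and they were taken as a gene family by name and FlyBase identifier, all 3 of which matched. Single nuclei RNA-sequencing (snRNA-seq) was done on 5 libraries of female flies, with 1 library per genotype, each from 90 pairs of MTs. EGT > w1118 flies carried esg-GAL4, tub-GAL80TS and UAS-GFP, and EGT > yki act flies (Yki flies) carried the same with UAS-yki3SA, an active form of the growth regulator Yorkie that makes gut stem cells form tumors. PCts > w1118 flies carried CG31272-GAL4, which drives expression in principal cells (PCs), with tub-GAL80TS, and the PCts > Pvr act and PCts > Pvr RNAi flies carried the same driver with a transgene for an active PDGF/VEGF receptor (Pvr) or for RNAi against it. GAL80TS, present in all 5 genotypes, holds GAL4 back until the flies are moved to 29 °C. The sample descriptions give 8 days at 29 °C in one place and 5 days in another. The esg driver is also active in stem cells of the MT, so that the EGT genotypes do not limit expression to the gut.

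Inward rectifiers pass potassium more readily into the cell than out of it. In the MT, PCs take up potassium from the hemolymph across their basal membrane through Kir channels, the sodium pump and a cation-chloride cotransporter, and move it into the lumen by exchange for protons that a vacuolar ATPase pumps out. This potassium movement drives fluid secretion, while stellate cells, the other secretory cell type, pass chloride and water.

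Irk1 (FBgn0265042) lies on chromosome arm 3R, at 23168317 to 23185642 on the plus strand (BDGP6), and has 7 annotated transcripts. Irk2 (FBgn0039081) lies on the same arm, at 23513617 to 23519445 on the minus strand, with 4 transcripts. Irk3 (FBgn0032706) lies on 2L, at 18711071 to 18713748 on the minus strand, with 3 transcripts. The gene model CG46310 lies within Irk1 on the same strand and shares all 3202 of its exon bases with it. It had 0 UMIs (unique molecular identifiers, each standing for 1 captured RNA) in all 5 libraries, whereas Irk1 had 85333 UMIs in 5031 nuclei. Reads were counted with Cell Ranger 7.0.0 under default settings. CG46310 has a row in the deposited matrix, so the gene reference held it. How reads in the shared exon bases were assigned is not given in the sources used here, so the level of Irk1 carries that uncertainty. The antisense genes cnc and Grip71 overlap the ends of Irk1 and Irk3 by 63 and 227 bases.

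The libraries held 3380 (EGT > w1118), 3015 (PCts > w1118), 3640 (EGT > yki act), 1969 (PCts > Pvr RNAi) and 9367 (PCts > Pvr act) nuclei, with 10018765 to 39154127 UMIs per library and a median of 1515.5 to 3889 UMIs per nucleus. No nucleus of PCts > Pvr act had fewer than 500 UMIs, while the lowest of the other libraries had 150 to 223. The authors assigned the nuclei to 17 cell types. Visceral muscle, fat body and adult tracheal cells, 3 of them, lie outside the MT epithelium, and 5 bear the name of Pvr activation. PCts > Pvr act held 0 nuclei of main segment PCs, main segment PCs 2, initial and transitional PCs or renal stem cells. Pvr itself was at 27.0 UMIs per 10,000 in PCts > Pvr act and 4.298 in PCts > w1118. The library labelled PCts > Pvr RNAi had 4.74, so the knockdown did not show in this mean over all nuclei. Pooled, Pvr had 6306 of 10018765 UMIs there and 10506 of 14781993 in PCts > w1118, a somewhat lower rate. Its level within PCs is not given here. The stellate cell markers tsh, Lkr, SecCl, ClC-a and tio summed to 166 to 229 UMIs per 10,000 in stellate cells. In nuclei annotated as renal stem cells the markers Dl and N summed to 0.982 to 4.17, within the range of the PC types (0.332 to 8.30), and esg was not matched. The PC markers ct, CapaR, Uro and Alp4 summed to 60.5 to 95.1 in these nuclei, beside 64.1 to 87.3 in main segment PCs. These markers thus did not set the nuclei annotated as renal stem cells apart from PCs. Of the barcodes, 53 occurred in 2 libraries (106 nuclei).

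Levels are given below as UMIs of a gene per 10,000 UMIs of a nucleus, averaged over nuclei. With 1 library per genotype there was no replicate, no test across genotypes was possible, and all 95% intervals cover counting error only. Intervals on UMI counts take each UMI as independent and leave out the spread between nuclei. They, and the comparisons that rest on them, are too narrow where a gene is uneven over nuclei. Cell types were described in a library where they held at least 20 nuclei. Levels of different genes were not compared with each other, since 3′ counts differ in capture between transcripts.

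Over all nuclei, Irk1 was at 7.91 in EGT > w1118, 6.45 in PCts > w1118, 6.003 in EGT > yki act, 19.3 in PCts > Pvr RNAi and only 0.466 with active Pvr. Irk2 was at 2.04, 1.82, 3.46, 1.76 and 0.0620, and Irk3 at 7.90, 7.61, 3.75, 7.61 and 0.0347, in the same order of libraries. The Pvr act library was thus the lowest for all 3 genes, the Pvr RNAi library the highest for Irk1, and the Yki library the highest for Irk2.

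Irk1 was highest in the secretory part of the tubule. Initial and transitional PCs, which form the distal end of the tubule, held 29.1 UMIs per 10,000 in EGT > w1118, 34.5 in PCts > w1118, 28.8 in EGT > yki act and 32.8 in PCts > Pvr RNAi. Main segment PCs, the main site of secretion, held 27.1, 11.3, 17.5 and 39.2 in these libraries. The libraries lay within 1.20-fold of each other in initial and transitional PCs, but spanned 3.48-fold in main segment PCs. Main segment PCs 2, a cell type found mostly in Yki flies, held 11.4 in EGT > w1118, 8.56 in PCts > w1118 and 22.7 in EGT > yki act. Stellate cells held 12.1, 8.17, 11.5 and 9.52 in EGT > w1118, PCts > w1118, EGT > yki act and PCts > Pvr RNAi. These 4 cell types were the highest, and each of them overlapped the next in its range over libraries. Below stellate cells came a gap: the highest median of any other cell type was 2.66, in lower segment PCs (Pvr-act). That median lay between its 2 libraries, EGT > yki act at 4.94 and PCts > Pvr act at 0.374. Renal stem cells (1.17 to 7.05), lower tubule PCs (0.628 to 1.68), upper ureter PCs (0.0832 to 2.76) and lower ureter PCs (0 to 1.90) followed in this order of medians. Of 16 neighbouring pairs in the order 15 overlapped, and 12 of 15 without PCts > Pvr act.

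**Figure D1:**
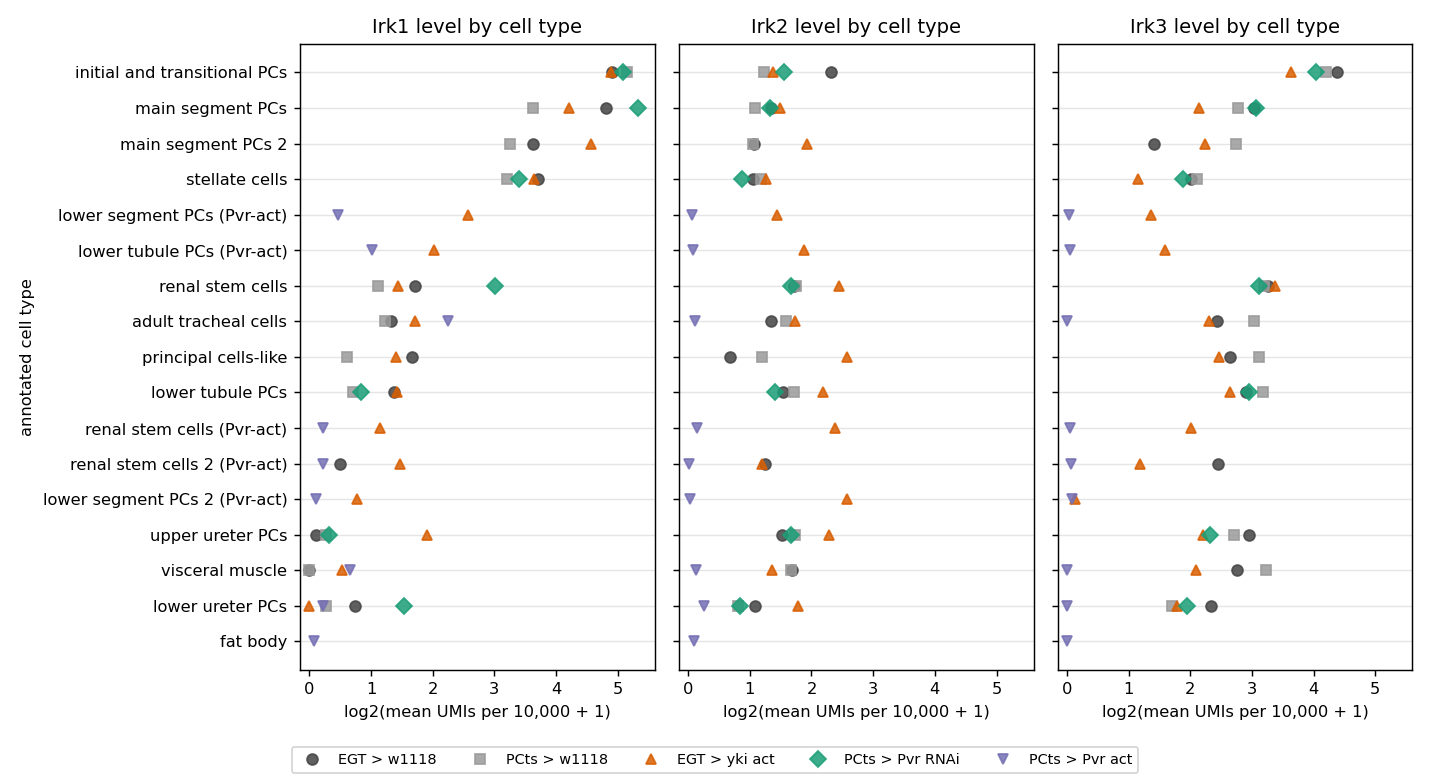
Level of Irk1, Irk2 and Irk3 by annotated cell type, as log2 of 1 plus the mean UMIs per 10,000, with 1 point for each library that held at least 20 nuclei of the type. For Irk1 the 4 cell types at the top stand apart from the rest, for Irk3 initial and transitional PCs do, and for Irk2 the ranges of neighbouring cell types overlap but for fat body.

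The 3 cell types outside the epithelium served as the comparison level for RNA free in the nuclei suspension, from which low expression in those cells cannot be told apart. Irk1 there was at 1.08 per 10,000 pooled UMIs in EGT > w1118 (95% interval 0.671 to 1.66, 124 nuclei), 0.525 in PCts > w1118 (0.171 to 1.23, 91 nuclei) and 0.992 in EGT > yki act (0.512 to 1.73, 69 nuclei). In PCts > Pvr RNAi it was at 0 UMIs in 15 nuclei, which allows up to 20% of nuclei with a UMI and says nothing of nuclei that express the gene. Irk1 exceeded this level in initial and transitional PCs, main segment PCs and stellate cells in 4 of 4 libraries, and in main segment PCs 2 in 3 of 3. In EGT > w1118 the pooled level was 28.3-fold (18.5 to 45.8) above it in initial and transitional PCs, 25.7-fold (16.8 to 41.6) in main segment PCs and 11.4-fold (7.34 to 18.7) in stellate cells. Upper ureter PCs of EGT > w1118, at 0.26 of that level (0.10 to 0.62), were below it. Of 46 pairs of epithelial cell type and library, Irk1 was above the outside level in 22, below it in 8, and not separable from it in 16. All pairs of PCts > Pvr act were among those below, against an outside level that came mostly from adult tracheal cells.

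Single nuclei showed how evenly Irk1 was spread. In main segment PCs, 93.8% of nuclei of EGT > w1118, 84.7% of PCts > w1118, 97.9% of EGT > yki act and 97.3% of PCts > Pvr RNAi held an Irk1 UMI. Outside the epithelium the shares were 8.06%, 5.49%, 5.80% and 0%. Main segment PCs were much deeper, with a median of 11479.5 UMIs against 934.5 in EGT > w1118, so that shares were also computed after 500 UMIs were drawn from each nucleus. They then came to 57.5%, 36.7%, 51.1% and 68.7% in main segment PCs, and to 5.49%, 5.17%, 0% and 0% outside the epithelium, where 33, 33, 11 and 6 nuclei with fewer UMIs were left out. The median nucleus of main segment PCs held 19.1 Irk1 UMIs per 10,000 in EGT > w1118, 6.18 in PCts > w1118, 15.3 in EGT > yki act and 30.4 in PCts > Pvr RNAi. The order of the libraries was the same by medians as by means. The variance of Irk1 counts over nuclei was 48.2 times its mean in EGT > w1118 and 25.8 times in PCts > Pvr RNAi, and the 10% of nuclei with most Irk1 UMIs held 38.2% and 29.1% of them. In stellate cells, 49.6%, 40.9%, 58.1% and 47.1% of nuclei held an Irk1 UMI, in the same order of libraries.

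**Figure D2:**
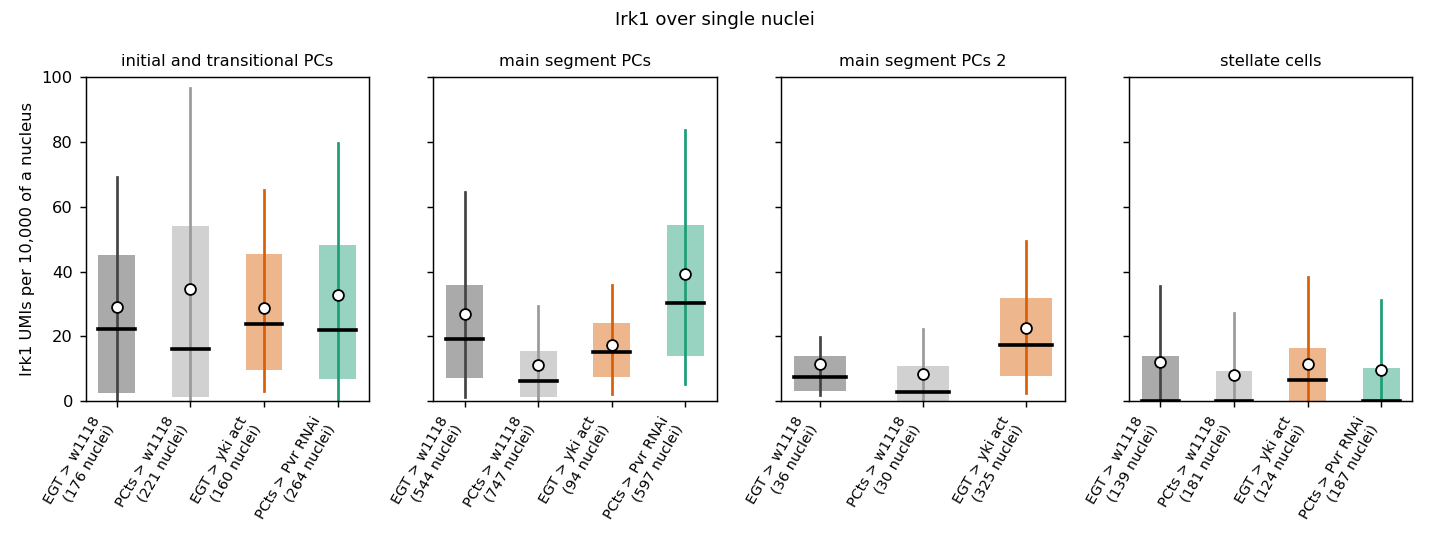
Irk1 UMIs per 10,000 of a nucleus in 4 cell types, by library, with the number of nuclei. Boxes span the middle 50% of nuclei, black lines are medians, vertical lines run from the 10th to the 90th percentile and open circles are means. The libraries lie close together in initial and transitional PCs, while in main segment PCs the medians run from 6.18 (PCts > w1118) to 30.4 (PCts > Pvr RNAi).

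In nuclei annotated as renal stem cells, Irk1 was at 2.29 in EGT > w1118, 1.17 in PCts > w1118, 1.70 in EGT > yki act and 7.05 in PCts > Pvr RNAi. The last value rested in part on 1 nucleus at 1546 UMIs per 10,000 (81 UMIs), which alone added 2.93, and without the highest nucleus the mean was 4.12. Between 5.03% and 13.3% of these nuclei held an Irk1 UMI. The pooled level was 1.72-fold (1.11 to 2.81) that outside the epithelium in EGT > w1118, above it in PCts > Pvr RNAi as well, and not separable from it in the other two.

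Irk3 was highest in the distal tubule. Initial and transitional PCs held 19.8 UMIs per 10,000 in EGT > w1118, 17.4 in PCts > w1118, 11.4 in EGT > yki act and 15.4 in PCts > Pvr RNAi, and their lowest library lay above the highest library of every other cell type. Renal stem cells followed with 8.56, 8.20, 9.37 and 7.63, and main segment PCs held 7.19, 5.80, 3.41 and 7.37. From renal stem cells downward most neighbouring cell types overlapped. Unlike Irk1, Irk3 was low in stellate cells, at 3.05, 3.32, 1.23 and 2.69.

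Irk3 was also found at a substantial level outside the epithelium. There it was at 4.90 per 10,000 pooled UMIs in EGT > w1118 (3.97 to 5.99), 6.09 in PCts > w1118 (4.63 to 7.88), 2.98 in EGT > yki act (2.08 to 4.12) and 6.31 in PCts > Pvr RNAi (3.36 to 10.8). Initial and transitional PCs exceeded it by 3.86-fold (3.15 to 4.80), 2.75-fold (2.12 to 3.64), 3.74-fold (2.69 to 5.36) and 2.37-fold (1.38 to 4.45). Main segment PCs exceeded it only in EGT > w1118, by 1.46-fold (1.19 to 1.81), and stellate cells were below it in 2 of 4 libraries. Over the 46 pairs, Irk3 was above the outside level in 12, below it in 7 and not separable from it in 27. Of nuclei outside the epithelium 34.7%, 33.0%, 27.5% and 26.7% held an Irk3 UMI, against 96.7%, 95.3%, 92.6% and 96.0% in the deeper main segment PCs. After thinning to 500 UMIs these became 24.2%, 24.1%, 13.8% and 44.4% outside (the last from 9 nuclei) and 27.4%, 23.6%, 13.8% and 28.6% in main segment PCs.

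Irk2 showed no order of cell types that held across libraries, since 15 of 16 neighbouring cell types overlapped (13 of 15 without PCts > Pvr act). Within a library it still spanned several-fold, in EGT > w1118 from 0.598 in principal cells-like nuclei to 3.997 in initial and transitional PCs. Main segment PCs held 1.53 UMIs per 10,000 in EGT > w1118, 1.11 in PCts > w1118, 1.81 in EGT > yki act and 1.51 in PCts > Pvr RNAi, and upper ureter PCs held 1.86, 2.32, 3.85 and 2.19. Outside the epithelium the pooled level was 1.496 (1.002 to 2.15), 1.58 (0.882 to 2.60), 2.07 (1.34 to 3.05) and 2.43 (0.788 to 5.66), so that Irk2 was above it in 8 of the 46 pairs, below it in 1 and not separable from it in 37. The levels above it were those of upper ureter PCs in EGT > w1118, PCts > w1118 and EGT > yki act, of renal stem cells in both EGT libraries, of lower tubule PCs and principal cells-like nuclei in EGT > yki act, and of initial and transitional PCs in EGT > w1118. The last type held 3.997 UMIs per 10,000 in EGT > w1118, 1.35 in PCts > w1118, 1.60 in EGT > yki act and 1.93 in PCts > Pvr RNAi. The pooled level in EGT > w1118 was 2.88-fold (1.98 to 4.34) above that outside the epithelium, whereas in the other 3 libraries the ratio was 0.93 to 0.99. In stellate cells Irk2 was at 0.824 to 1.41, not separable from the outside level in any of 4 libraries. Where pooled Irk2 or Irk3 per 10,000 did not exceed that outside the epithelium, this rate did not separate expression from free RNA. Differences between libraries in such cell types are given below as values only. Counts per nucleus, which differ with depth, were not compared. In EGT > w1118, Irk3 had 4743 UMIs in 544 nuclei of main segment PCs. Outside the epithelium it had 95 UMIs in 67 adult tracheal, 39 visceral muscle and 18 fat body nuclei.

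Nuclei of main segment PCs often held UMIs of all 3 genes, with 67.3% in EGT > w1118, 52.1% in PCts > w1118, 75.5% in EGT > yki act and 64.5% in PCts > Pvr RNAi. Within these nuclei, Spearman's rho of Irk1 with Irk3 levels was 0.33, 0.16, 0.36 and 0.29, and in initial and transitional PCs it was 0.18, 0.50, 0.27 and 0.40. Irk2 with Irk3 gave 0.16, 0.05, 0.20 and 0.09 in main segment PCs, and −0.26, −0.10, −0.12 and −0.06 in initial and transitional PCs. These are descriptions over nuclei of 1 library, which share its free RNA and normalization, and weak values in sparse counts are no finding.

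Across the 55 pairs of cell type and library with at least 20 nuclei, the genes whose log2 levels followed Irk1 most closely, of 4531 genes compared, were T48 (Pearson's r = 0.83), Oatp30B (0.81), the homeobox gene hth (0.80), CG9171 (0.79) and CG4928 (0.78). Those nearest to Irk3 were CG12963 (0.94), nemy (0.93), CG34043 (0.91), CG15406 (0.90) and fiz (0.89). Those nearest to Irk2 were CG11878 (0.92), Irk3 (0.88), CG12963 (0.86), CG42833 (0.85) and Pex11c (0.85). The likeness of Irk2 and Irk3 rested on the Pvr act library, since over the 46 pairs without it their r was 0.36. Irk1 with Irk2 gave 0.28 and, without that library, −0.13, and Irk1 with Irk3 gave 0.39 and 0.23. The pairs share libraries and depth, and no p is given.

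The w1118 controls, which differ in driver and in the GFP transgene, are the only view of how far libraries differ without yki or Pvr transgenes. A log2 fold change is used here as the log2 ratio of mean levels after 1 was added to each, and a gene is called past 1.5-fold beyond 0.58 in either direction. Genes were counted where 10% or more of the nuclei of one of the libraries held a UMI. Over all nuclei 0 of the 3 Irk genes passed 1.5-fold between the controls, where 4.22% of all genes did (1.77% higher and 2.45% lower in EGT > w1118). From pooled counts, which weight deep nuclei more, Irk1 was 1.59-fold higher in EGT > w1118 (log2 ratio 0.67, 0.64 to 0.70). Irk1, however, was 1.19 higher on the log2 scale in main segment PCs of EGT > w1118 than of PCts > w1118, a cell type in which 3.12% of genes passed and in which 99.4% of genes differed by less than Irk1. The log2 ratio of pooled counts, with nothing added, was 1.24 (1.21 to 1.28). Irk2 was 1.09 higher in initial and transitional PCs of EGT > w1118, where 2.80% of genes passed, and Irk3 was 1.33 lower in its main segment PCs 2 (60 UMIs in 36 nuclei against 151 in 30), where 13.9% of genes passed. In those main segment PCs 2 of EGT > w1118 the stellate markers summed to 33.6, against 11.1 in PCts > w1118 and 7.52 in EGT > yki act. SecCl alone made up 32.4 of it, while Lkr was at 0 to 0.235 and tio at 0 in all 3 libraries, and their part in the result was not tested. In the other cell types 2.54% (lower tubule PCs), 8.47% (stellate cells), 12.6% (upper ureter PCs), 13.5% (renal stem cells), 31.4% (adult tracheal cells), 35.3% (lower ureter PCs), 51% (principal cells-like) and 55.2% (visceral muscle) of genes passed, and of the Irk genes Irk1 in 2 of them (lower tubule PCs 0.66, principal cells-like 1.05) and Irk3 in 2 (adult tracheal cells −0.61, lower ureter PCs 0.63). Any difference of these sizes in the same cell types below is within what the controls showed.

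In Yki flies, Irk3 was past 1.5-fold lower than in EGT > w1118 over all nuclei, and each of the 3 genes differed in direction between cell types. Over all nuclei the log2 fold change was −0.35 for Irk1, 0.56 for Irk2 and −0.91 for Irk3. Of the 3 genes, 1 passed 1.5-fold (Irk3, lower), where 11.5% of all genes passed, 6.34% higher and 5.15% lower. With every cell type given its share in the control, Irk3 was at 6.78 against 7.94 (−0.20) and was no longer past 1.5-fold. This weighting used 72.9% of the nuclei of Yki flies. Renal stem cells, 47.1% of the nuclei of the control, entered it with only 30 nuclei of Yki flies, with Irk3 at 9.37 (28 UMIs). The pooled ratios on the log2 scale were −0.51 (−0.54 to −0.48), 0.60 (0.53 to 0.66) and −0.94 (−0.99 to −0.90), with intervals that leave out the spread between nuclei. The cell type shares differed strongly. Main segment PCs made up 2.58% of nuclei of Yki flies against 16.1% of the control, and upper ureter PCs 26.7% against 2.78%. Main segment PCs supplied 14.8% of the Irk1 UMIs of Yki flies against 75.7%, and main segment PCs 2 supplied 47.0% against 2.40%. In single nuclei libraries, fewer nuclei of a type and less RNA per nucleus both lower such totals, so the comparison was repeated within cell types.

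Of 12 cell types, Irk1 passed the detection filter in 10, and was past 1.5-fold higher in 2, lower in 2 and within 1.5-fold in 6 of them. The share of all genes past 1.5-fold was 3.75% in main segment PCs, 6.84% in lower tubule PCs, 7.17% in initial and transitional PCs, 11.9% in main segment PCs 2, 16.4% in upper ureter PCs and 17.5% in stellate cells. It was 30.9% in renal stem cells, 39.2% in lower ureter PCs, 40.8% in adult tracheal cells, 41.3% in principal cells-like nuclei, 46.7% in visceral muscle and 53.4% in renal stem cells 2 (Pvr-act), so that a call in these says little of the gene. Irk1 was lower in main segment PCs, with 17.5 in EGT > yki act against 27.1 in EGT > w1118 (log2 fold change −0.60, and −0.64, −0.70 to −0.58, from pooled counts). PCts > w1118 was at 11.3 there, below both. Irk1 was higher in main segment PCs 2, with 22.7 in 325 nuclei against 11.4 in 36 (0.94), and in upper ureter PCs, with 2.76 in 971 nuclei against 0.0832 in 94 (1.79). In upper ureter PCs the other control and PCts > Pvr RNAi were at 0.213 and 0.254, so EGT > yki act stood above all 3. There 20.9% of its nuclei held an Irk1 UMI against 3.19%, and 7.75% against 0% after thinning, and the level was 2.10-fold (1.19 to 4.08) that outside the epithelium in the same library. In lower ureter PCs there were 0 UMIs in 67 nuclei of EGT > yki act and 11 in EGT > w1118, at least 3.71-fold lower with 3 counts as the floor. The log2 fold change was −0.02 in initial and transitional PCs, where the means were 28.8 and 29.1, and −0.07 in stellate cells.

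Irk2 was past 1.5-fold higher in 6 of the 11 cell types in which it passed the filter and lower in 1. It was higher in principal cells-like nuclei, with 4.99 in 661 nuclei against 0.598 in 32 (3 UMIs), in main segment PCs 2 (2.80 against 1.11), in upper ureter PCs (3.85 against 1.86), in lower tubule PCs (3.55 against 1.90), in renal stem cells (4.47 against 2.30) and in lower ureter PCs (2.45 against 1.12). The pooled interval left 0 in the first 5 and held it in the last. In main segment PCs 2 and lower ureter PCs Irk2 did not exceed the level outside the epithelium in either library. In initial and transitional PCs Irk2 was lower, at 1.60 against 3.997, where PCts > w1118 was at 1.35. Outside the epithelium the pooled level was 2.07 in EGT > yki act and 1.496 in EGT > w1118, with overlapping intervals.

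Irk3 was past 1.5-fold lower in 6 of the 12 cell types and higher in 1, main segment PCs 2. It was lower in initial and transitional PCs (11.4 against 19.8, log2 fold change −0.74), main segment PCs (3.41 against 7.19, −0.89), upper ureter PCs (3.60 against 6.78, −0.76) and stellate cells (1.23 against 3.05, −0.86), and in these 4 cell types EGT > yki act was the lowest of the 4 libraries. Of these 4, Irk3 exceeded the outside level in both libraries in initial and transitional PCs, in EGT > w1118 alone in main segment PCs, and in neither library in upper ureter PCs and stellate cells. The other 2 were renal stem cells 2 (Pvr-act) and visceral muscle, in which the pooled intervals held 0. The difference of Irk3 in main segment PCs was larger than that of 99.01% of genes. Outside the epithelium Irk3 was lower too, at 2.98 against 4.90 per 10,000 pooled UMIs. In main segment PCs 2, EGT > yki act (3.70) lay between EGT > w1118 (1.65) and PCts > w1118 (5.66), so the direction there depended on the control.

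**Figure D3:**
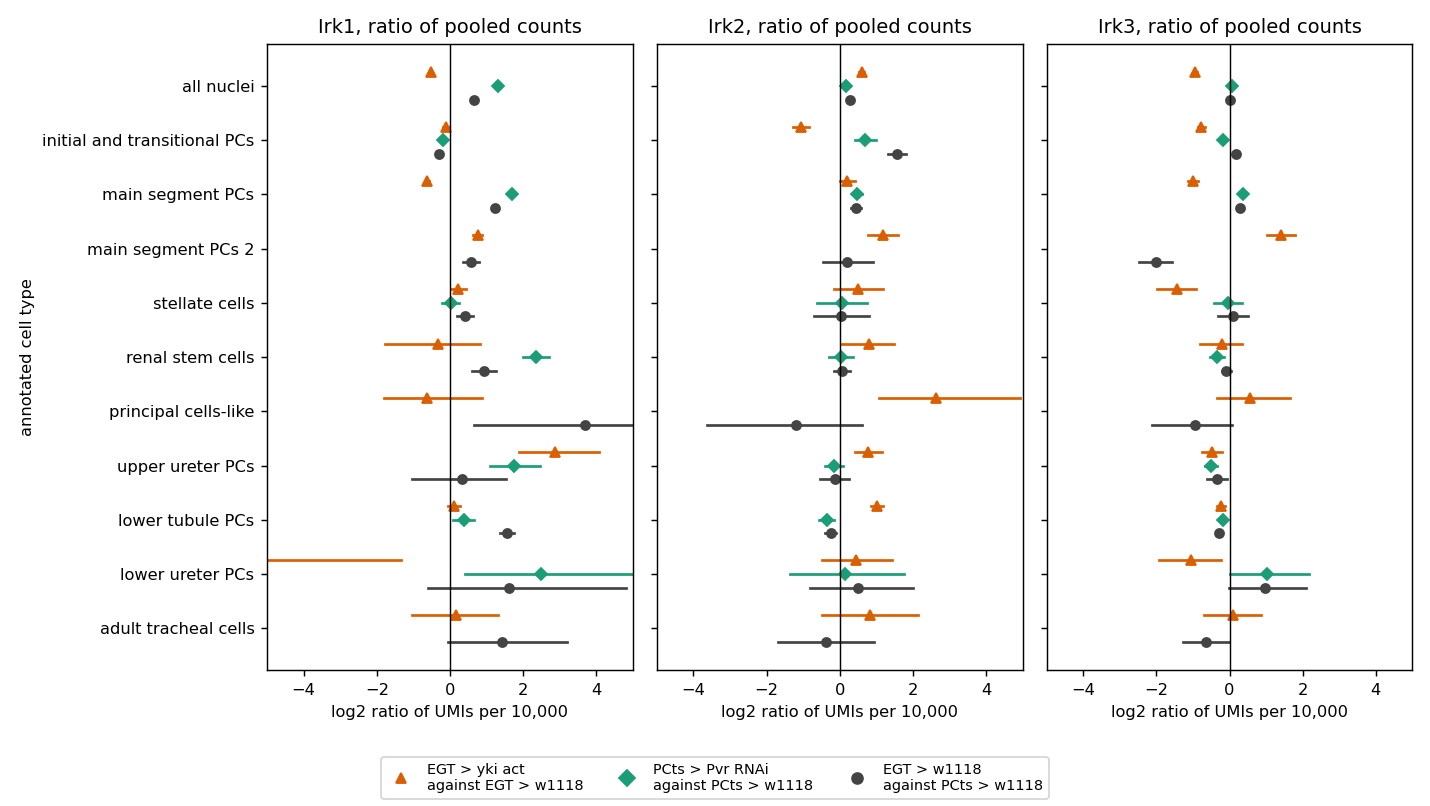
Log2 ratio of pooled UMIs per 10,000, with exact 95% counting intervals (horizontal lines), for Irk1, Irk2 and Irk3 by cell type in 3 pairs of libraries. Lines that reach the edge of a panel go on beyond it, and a line with no point belongs to a pair with 0 UMIs in 1 library. The pair of controls differs as much in Irk1 of main segment PCs (1.24) as the transgene libraries do in many cell types.

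Irk2 and Irk3 shifted against each other. Of the UMIs of both genes, Irk2 made up 20.5% in EGT > w1118 (19.9% to 21.2%), 17.8% in PCts > w1118 (17.2% to 18.5%) and 42.9% in EGT > yki act (42.0% to 43.8%). The Irk2 share was 55.0% against 33.8% in upper ureter PCs, 53.8% against 23.4% in stellate cells and 32.9% against 17.6% in main segment PCs. It was 41.0% (28.6% to 54.3%) against 23.4% (16.3% to 31.8%) outside the epithelium. These intervals overlapped, and expression by the cells there cannot be told apart from free RNA of the tubule. In initial and transitional PCs it was 15.6% against 18.5%, with 8.02% in PCts > w1118, and in main segment PCs 2 43.5% against 47.4% and 16.1%.

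Irk1 was higher in the PCts > Pvr RNAi library than in PCts > w1118, while Irk2 and Irk3 were close to it. Mean Pvr over all nuclei was not lower in this RNAi library. Over all nuclei the log2 fold change of Irk1 was 1.44, larger than that of 99.7% of genes. Irk1 was thus 1 of the 3 genes past 1.5-fold, where 1.83% of all genes passed, 0.591% higher and 1.23% lower. Irk2 and Irk3 had log2 fold changes of −0.03 and 0.00. Main segment PCs made up 30.3% of nuclei against 24.8% in the control, and initial and transitional PCs 13.4% against 7.33%. With every cell type given its share in the control, the log2 fold change of Irk1 was 1.17.

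Of 7 cell types, Irk1 passed the filter in 6 and was past 1.5-fold higher in 3 of them, whereas Irk2 and Irk3 were within 1.5-fold in 7 of 7. Pooled counts went past 1.5-fold in 3 more cases. Irk1 was 3.38-fold higher in upper ureter PCs (log2 ratio 1.76, 1.10 to 2.47, from 90 and 24 UMIs). Its mean levels there were 0.254 and 0.213 (log2 fold change 0.05). Only 9.04% and 4.95% of nuclei held a UMI, under the detection filter. Irk2 was 1.62-fold higher in initial and transitional PCs (0.70, 0.42 to 0.98) and Irk3 2.04-fold higher in lower ureter PCs (1.03, 0.0040 to 2.17). In main segment PCs Irk1 was at 39.2 against 11.3, a log2 fold change of 1.71 (pooled 1.68, 1.65 to 1.72), larger than for 99.9% of genes there. Of all genes 6.01% were past 1.5-fold in main segment PCs, 1.82% in lower tubule PCs, 4.91% in stellate cells, 5.28% in upper ureter PCs, 5.44% in initial and transitional PCs, 8.65% in renal stem cells and 28.7% in lower ureter PCs. EGT > w1118, at 27.1, lay between them, so that part of this distance was also seen between the controls. In renal stem cells Irk1 was at 7.05 against 1.17 (1.89, and 1.40 without the highest nucleus of each library), and in lower ureter PCs at 1.90 against 0.209, from 16 and 2 UMIs. The log2 fold change was −0.07 in initial and transitional PCs and 0.20 in stellate cells. Main segment PCs of this library had the lowest median depth of the 4, 8377 UMIs against 9678 in PCts > w1118, and whether depth played a part was not tested. Irk3 in main segment PCs was at 7.37 against 5.80 (0.30) and Irk2 at 1.51 against 1.11 (0.25).

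In PCts > Pvr act all 3 genes were lower over all nuclei than in PCts > w1118, the control it shares with the Pvr RNAi library. The log2 fold change was −2.35 for Irk1, −1.41 for Irk2 and −3.06 for Irk3, 3 of 3 past 1.5-fold, where 32.5% of all genes passed, 14.9% higher and 17.6% lower. The pooled log2 ratios were −3.37 (−3.42 to −3.31), −4.61 (−4.80 to −4.42) and −7.24 (−7.46 to −7.04). The cell types with most Irk1 in the control were those of which this library held no nuclei, so for Irk1 the loss of these annotated types and a lower level per nucleus cannot be told apart over all nuclei.

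Only 3 cell types had at least 20 nuclei in both libraries, and 2 of them lie outside the epithelium. Of all genes 62.5% passed 1.5-fold in adult tracheal cells, 46% in lower ureter PCs and 74.2% in visceral muscle, so that calls there are weak descriptions. Irk3 had 0 UMIs in 186 nuclei of adult tracheal cells, which allows up to 1.61% of nuclei with a UMI. PCts > w1118 had 46 UMIs in 61 nuclei there. With 3 counts over the group put in place of 0, Irk3 was 102-fold lower, which leaves out the counting error of the control. With that error included, exact 95% limits from pooled counts reached up to −6.31 on the log2 scale. Irk3 also had 0 UMIs in 86 nuclei of lower ureter PCs (11.5-fold lower, limit −2.97). The same held in 26 nuclei of visceral muscle (15.9-fold lower, limit −3.42). Irk2 was at 0.0789 against 2.01 in adult tracheal cells, from 4 and 11 UMIs, and at 0.194 against 0.760 in lower ureter PCs. Irk2 and Irk3 were thus lower outside the epithelium too. Irk1 was higher in adult tracheal cells, at 3.75 in 186 nuclei against 1.35 in 61 (log2 fold change 1.02, pooled 1.88, 0.62 to 3.53), where the median gene was shifted by 0.30. The tracheal markers btl, trh and vvl summed to 2.49 there against 6.199 in the control, with 0 of 3 at 0, and their part in this result was not tested.

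The cell types named after Pvr activation were found in EGT > yki act as well, and in the 3 largest of them all 3 genes were higher there. In lower segment PCs (Pvr-act) Irk1 was at 4.94 in EGT > yki act and 0.374 in PCts > Pvr act, Irk2 at 1.71 and 0.0452, and Irk3 at 1.59 and 0.0256. In lower tubule PCs (Pvr-act) Irk1 was at 3.07 and 1.02, Irk2 at 2.68 and 0.0593, and Irk3 at 2.03 and 0.0386. In renal stem cells (Pvr-act) Irk1 was at 1.21 and 0.164, Irk2 at 4.23 and 0.105, and Irk3 at 3.03 and 0.0347. The pooled intervals of the 2 libraries did not overlap for any of the 3 genes in these cell types, which share a name but not a genotype, a driver or a control. Lower tubule PCs (Pvr-act) supplied 78.8% of the Irk1 UMIs of PCts > Pvr act, and 10% of their nuclei held 93.0% of them. In all 6 epithelial cell types of PCts > Pvr act with at least 20 nuclei, pooled Irk1 was below that outside the epithelium (2.30, 1.92 to 2.73), at 0.0528 to 1.76. That outside level came mostly from adult tracheal cells, with 122 Irk1 UMIs against 4 in visceral muscle and a mean of 0.0538 in fat body. It is thus not a level of free RNA alone. Lower segment PCs 2 (Pvr-act) of that library, with 3 Irk1 UMIs in 725 nuclei, carried the hemocyte markers Hml, NimC1 and Pxn at a sum of 40.6, against 0.63 to 3.16 in its other cell types.

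**Figure D4:**
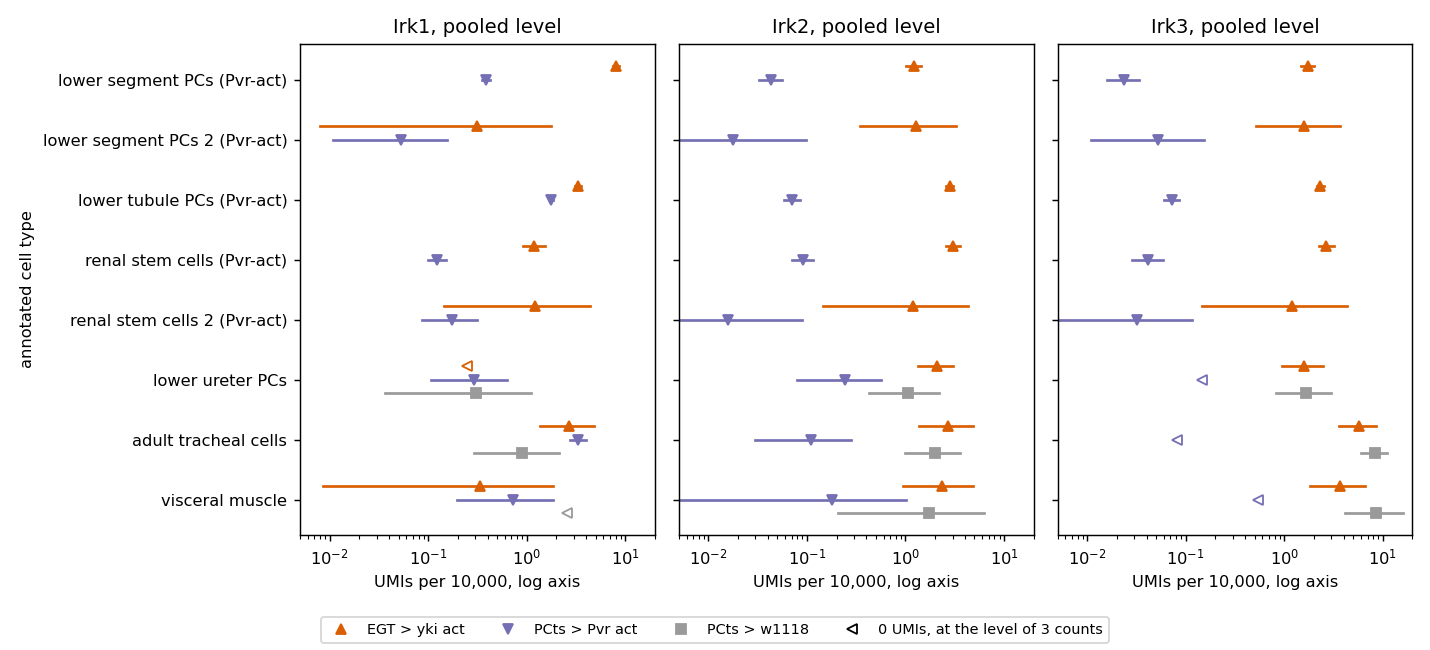
Pooled UMIs per 10,000 on a log axis, with exact 95% intervals (horizontal lines), for the 5 cell types named after Pvr activation and for 3 others, in EGT > yki act, PCts > Pvr act and, where it held at least 20 nuclei, PCts > w1118. Open triangles mark 0 UMIs at the level of 3 counts, and lines that reach the left edge go on beyond it. Irk2 and Irk3 of PCts > Pvr act lie below the other libraries in most cell types, and Irk1 of adult tracheal cells does not.

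Of 15 genes for other steps of cation uptake and its control, all matched, 7 passed the detection filter between Yki and control flies over all nuclei, with 0 past 1.5-fold higher and 1 lower (11.5% of all genes in either direction), Atpalpha, the catalytic subunit of the sodium pump (21.8 against 41.6, log2 fold change −0.90). Atpalpha was also 0.79 lower in EGT > w1118 than in PCts > w1118. Within main segment PCs, where Irk1 and Irk3 were lower, 0 of 10 passed 1.5-fold (3.75% of all genes), and Atpalpha was at 95.8 against 94.3. In initial and transitional PCs 1 of 10 was lower, nrv2, a sodium pump beta subunit (0.0515 against 0.682). In PCts > Pvr act 10 passed the filter, 1 higher and 3 lower, where 32.5% of all genes were past 1.5-fold, so that the count is near the background. Atpalpha (−3.80), nrv1, another beta subunit (−1.10), and the cation/proton antiporter Nha2 (−1.55) were lower, and the cotransporter Ncc69 was higher (1.09). In PCts > Pvr RNAi 0 of 7 passed 1.5-fold over all nuclei and 0 of 9 in main segment PCs, where Irk1 did (1.83% and 6.01% of all genes). The median log2 fold change of the list was −0.17 in Yki flies, 0.07 in PCts > Pvr act and −0.08 in PCts > Pvr RNAi, beside 0.03, −0.01 and −0.02 over all genes. Of 16 voltage-gated, calcium-gated and K2P potassium channels 1, KCNQ, passed the filter in each comparison and was within 1.5-fold, which says little beside shares of 11.5%, 32.5% and 1.83% of all genes.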

How the data were processed

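snRNA-seq values of 21371 nuclei from 5 libraries were used. The authors counted UMIs with Cell Ranger 7.0.0 and normalized them with Seurat on genome build BDGP6, as the submitters' processing notes name them. The authors deposited each value on a natural log scale (UMIs scaled to 10,000 per nucleus, with 1 added before the log), along with a library and a cell type for every nucleus. Filters on nuclei and removal of doublets are not given in the sources used here, and the tables hold more nuclei of the EGT libraries than the paper's text counts. All values (100% of nuclei) were whole multiples of the smallest one within 1e-06, so UMI counts were recovered. Identifiers were matched to symbols and positions in Ensembl release 115 (BDGP6), 16447 of them with 48 left over. Sequences are not shown here.

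Yki flies were compared with EGT > w1118 and both Pvr libraries with PCts > w1118, both over all nuclei and by cell type, wherever a pair of libraries each held 20 or more. Counts have Poisson, ratios of pooled counts conditional binomial, and shares Clopper-Pearson intervals, all exact, at 95%. Depth was 150 to 123301 UMIs per nucleus. A pseudocount of 1 was used for fold changes and 0.1 for likeness, which needed a pooled level of at least 1 per 10,000 in at least 1 pair.

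The Irk genes were described in full. Of the lists for transport and potassium channels, at most 6 genes past 1.5-fold with the highest means were named, and of likeness the 5 highest correlations. The members and lists were chosen with earlier results of these data known. Alternatives were a pseudocount of 0.1, pooled counts with 1 added, control shares of cell types, the other control and centring on the median gene. Further ones were dropping nuclei with few (lowest 25%) or many (highest 5%) genes, no detection filter, and thinning to 500 UMIs. Ratios of pooled counts and their intervals were tested on simulated Poisson counts, which have no spread between nuclei. Fold changes with a pseudocount were not tested in this way. Python 3.11.15, numpy 2.4.6, scipy 1.17.1, pandas 2.3.3 and matplotlib 3.10.9 were used.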

Additional observations from a re-analysis of the deposited data

Results flagged for a closer look

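For each of the 3 genes, cell types differed in opposite directions past 1.5-fold between EGT > yki act and EGT > w1118, with 1 library on each side. Whether the cell types differ from each other was not tested. Log2 fold changes of Irk1 were 0.94 in main segment PCs 2, 1.79 in upper ureter PCs, −0.60 in main segment PCs and −0.74 in lower ureter PCs. Irk2 had 0.73 in renal stem cells, 0.76 in upper ureter PCs, 0.65 in lower tubule PCs, 1.91 in principal cells-like nuclei and 0.85 in main segment PCs 2, and −0.94 in initial and transitional PCs. Irk3 had 0.83 in main segment PCs 2, and −0.89 in main segment PCs, −0.76 in upper ureter PCs, −0.74 in initial and transitional PCs and −0.86 in stellate cells. In main segment PCs, initial and transitional PCs and main segment PCs 2 the opposite directions of Irk1, Irk2 and Irk3 in turn rest on EGT > w1118 as the control.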

How the results depend on the processing

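No paired analysis was possible because there was 1 library per genotype, and for the same reason no library could be left out. Pooled counts in this section had 1 added to each level before the log2 ratio, unlike the pooled ratios above. Over all nuclei, with Yki flies first, log2 fold changes of Irk1, Irk2 and Irk3 kept their direction under each alternative run, while Irk1 moved to −0.39 (pseudocount of 0.1), −0.47 (pooled counts), −0.090 (other control), −0.30 (without the 5% of nuclei with most genes), −0.29 (control shares of cell types) and −0.38 (centred). Irk2 moved to 0.74, 0.42 and 0.66 under the first 3 and to 0.45 without the 25% of nuclei lowest in genes. Irk3 moved to −1.06, −0.79 and −0.86 under the first 3 and to −0.20 with control shares. With a pseudocount of 0.1, 2 of the 3 genes passed 1.5-fold. The share of all genes was not computed at that pseudocount, so this count has no background. In PCts > Pvr act, Irk1 reversed to 0.80 with control shares, an alternative that rests on 3 cell types with 3.18% and 4.01% of the nuclei. It otherwise moved to −3.53 (pseudocount of 0.1), −2.47 (pooled), −2.60 (other control), −2.57 (without the 25%) and −2.42 (without the 5%). Irk2 moved to −3.56 and Irk3 to −5.84 with a pseudocount of 0.1, and Irk3 to −2.77 with control shares. In PCts > Pvr RNAi, Irk1 moved to 1.56 (pseudocount of 0.1), 1.24 (pooled), 1.19 (other control), 1.37 (without the 25%), 1.17 (control shares) and 1.40 (without the highest nucleus of each library, an alternative chosen after seeing the data). Irk2 was at 0.11 pooled and −0.14 against the other control, and Irk3 at 0.048, −0.048, 0.050 without the 25% and −0.043 with control shares. Within cell types, 3 values reversed against the other control: Irk1 in main segment PCs of Yki flies to 0.59, Irk2 in initial and transitional PCs to 0.15 and Irk3 in main segment PCs 2 to −0.50. In all, 47 of 63 kept their sign against the other control, 59 of 66 with pooled counts and 66 of 66 with a pseudocount of 0.1. Causes were not tested. Single libraries, the exons that Irk1 and CG46310 share, and the level of Irk2 and Irk3 outside the epithelium limit all of these values.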
